A study of Mus musculus with 2 samples.

Results

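The comparison described here sets the mAG+ gate against the mKO2neg gate of Fucci mouse bone marrow. Its members are the 48 cells listed as mAG+ and the 48 listed as mKO2neg in the deposited cell table, 96 of the 192 cells of the series. All cells came from C57BL/6 mice aged 8 weeks, in a study titled for the expansion of quiescent blood stem cells, and both gates belonged to 1 library. The Fucci mouse makes 2 coloured reporters: mKO2, joined to a piece of Cdt1, is stable in G0 and G1, and mAG, joined to a piece of geminin, is stable in S, G2 and M phase. The mKO2neg gate is named only for the missing mKO2 signal, and no surface markers, mouse numbers or plates are given. Each gate is therefore 1 sample, the 48 cells of a gate are not replicates, and no p-value is given. Levels are given as CPM, a gene's counts from all cells of a gate scaled to the same total for both gates, and a difference between gates is a log2 ratio of mAG+ over mKO2neg.

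The cell cycle is driven by waves of transcription. D-type cyclins with Cdk4 and Cdk6 act in G1, and the release of E2F factors then turns on the genes that license and copy DNA in S phase. Later the B-Myb and FoxM1 proteins turn on the genes of G2 and mitosis, whose products condense chromosomes, build the spindle and divide the cell. Adult blood stem cells spend most of their time outside this cycle, in a resting state that depends on CDK inhibitors and on transcription factors such as Mecom and Hlf.

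In the deposited tables the gene labels and the counts were out of step by 1 gene, and every value below is read from the corrected row. Each gene was taken from the row that carries the label of the gene before it in the order of the GENCODE M21 annotation. In this library 92.9% of counts then fell in protein coding genes, against 52.0% with the labels as deposited, and 8 genes that nearly every cell transcribes took 2.41% of counts against 0.131%. The share of protein coding counts was highest at this displacement in 459 of 474 stretches of 100 consecutive genes over both libraries. It was also highest on 20 of 21 chromosomes. The exception, chromosome 19, holds the abundant non-coding Malat1, and without that gene its protein coding share was 96.2% at this displacement against 76.2% at the deposited labels. Mki67, for example, had 1985 counts over both libraries in the row labelled with the gene before it and 4 in its own. Of 53378 rows, 105 had an identifier outside the annotation, and a gene next to one of these could still be misread.

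The mAG+ cells were the deeper ones. This gate held 2791584 counts, with 315 to 184672 in single cells and a median of 45177. The mKO2neg gate held 1608630 counts, with 1 to 210516 in single cells and a median of 24633. The median cell had 4910 gene rows with a count in mAG+ and 3026 in mKO2neg. With every cell drawn down to 5000 counts these medians were 2129 in 45 cells and 1834 in 43 cells, so a smaller gap remained at equal depth. No cell name was shared by the libraries. One mKO2neg cell touches many results. This deepest cell of the gate held 13.1% of its counts, and its G2 and mitosis genes made up 47.7% and its S phase genes 54.7% of the gate's counts for those lists.

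Both gates carried markers of blood stem and progenitor cells, and single cells of each also carried markers of mature lineages. All 12 stem and progenitor markers on the list passed the filter of at least 10 counts over both gates, and their summed level was 1768 CPM in mAG+ and 2168 CPM in mKO2neg. Single mAG+ cells with at least 1000 counts gave these markers 0.0707% to 0.416% of their counts, and single mKO2neg cells 0.0585% to 0.598%. Of the T and NK cell markers none of 10 passed the filter and 7 had no count in either gate. None of 9 mast cell, basophil and eosinophil markers passed it and 8 had no count. Of 14 granulocyte and monocyte progenitor markers 7 passed, at 790 and 791 CPM in mAG+ and mKO2neg, with Elane, Ctsg and Ms4a3 at 0. Of 10 neutrophil markers 8 passed, at 275 and 531 CPM, with Ly6g at 0. The neutrophil share was 0.00248% in the median mAG+ cell and 0.00403% in the median mKO2neg cell, but reached 0.479% and 2.12% in single cells, above the highest stem and progenitor share of any cell of the same gate. Of 11 monocyte, macrophage and dendritic cell markers 5 passed, at 620 and 1091 CPM, nearly all of it from Lyz2, while Siglech, Cd209a and Ccr2 were at 0. Of 10 endothelial and stromal markers 5 passed, at 114 and 116 CPM, with Cdh5, Col3a1, Lepr and Pdgfra at 0. Of 14 megakaryocyte markers 11 passed, at 526 and 629 CPM, with Gp6 at 0. The erythroid list summed to 2295 CPM in mAG+ and 2691 CPM in mKO2neg, most of it from the carbonic anhydrase gene Car2, while Slc4a1 was at 0. The erythroid share reached 0.445% in a single mAG+ cell and 1.01% in a single mKO2neg cell. Both values also lay above the highest stem and progenitor share of the same gate. Lymphoid and B cell markers summed to 421 CPM in mAG+ and 184 CPM in mKO2neg. This rested on few cells, since Vpreb3 had counts in 4 cells of each gate (230 against 4 counts) and Cd79a in 3 mAG+ cells (67 against 0 counts). The lymphoid and B cell share reached 0.675% in a single mAG+ cell, above every stem and progenitor share there, and 0.158% in a single mKO2neg cell. The part of the lymphoid, neutrophil, monocyte, erythroid and megakaryocyte transcripts in the results below was not tested.

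Across the transcriptome the gates were centred alike and differed in a large minority of genes. Of 12115 genes with at least 10 counts over both gates, 2568 (21.2%) were at least 2-fold higher in mAG+ and 1774 (14.6%) at least 2-fold lower, and the median log2 ratio was 0.06. By sign alone, 6396 genes (52.8%) were higher and 5719 lower. At 5000 counts a cell, 6526 genes kept at least 10 counts, of which 880 (13.5%) were at least 2-fold higher and 751 (11.5%) at least 2-fold lower, with a median of -0.04. These shares are the background for every gene list below. A ratio of low counts is imprecise, so single genes are given with an exact conditional binomial 95% interval, which covers counting error only.

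**Figure D1:**
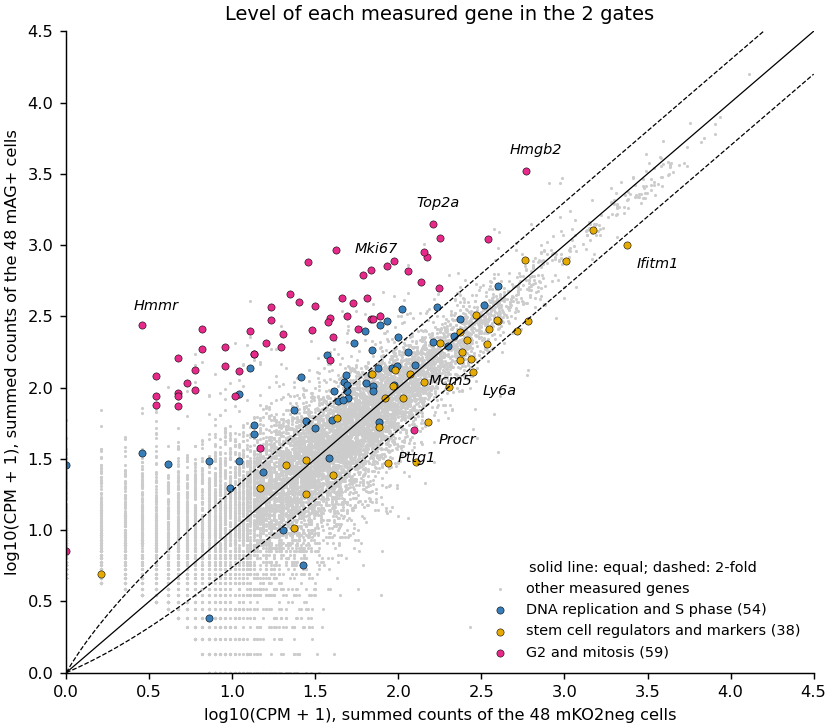
Level of each of the 12115 measured genes in the mKO2neg gate (x axis) and the mAG+ gate (y axis), as log10 of CPM + 1 from the counts summed over the 48 cells of each gate; coloured points are 3 gene lists, the solid line marks equal levels and the dashed lines a 2-fold difference. Of the 59 G2 and mitosis genes 58 lie above the upper dashed line, while most stem cell genes lie near or under the solid line.

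The genes of G2 and mitosis showed the widest gap between the gates of any list. Of 59 such genes measured (Fam64a was not among the deposited labels), 58 were at least 2-fold higher in mAG+ and 1 was lower, with a median log2 ratio of 3.34 and 3.30 at 5000 counts a cell. Together they made up 24275 CPM in mAG+ and 3438 CPM in mKO2neg. The median was 4.16 without the deepest cell of each gate, again with 58 genes higher and 1 lower.

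Hmgb2, a chromatin protein that is abundant in dividing cells, was the most highly counted of these genes, with 9169 counts in mAG+ and 942 in mKO2neg. Single mAG+ cells had a median of 3066 CPM and a highest value of 6762, against a median of 209 CPM and a highest value of 4911 in mKO2neg. Its log2 ratio was 2.49, with an interval from 2.39 to 2.59, and 3.44 with the deepest cells left out. Top2a, the topoisomerase that untangles sister chromosomes, stood at 1412 CPM in mAG+ and 161 CPM in mKO2neg (log2 ratio 3.13, interval 2.95 to 3.32, and 4.35 with the deepest cells left out). Every mAG+ cell with at least 1000 counts had Top2a, from 256 CPM to 2438 CPM with a median of 1346, while mKO2neg cells ran from 0 to 872 CPM with a median of 30.0. The ranges of the single cells overlapped, yet no mKO2neg cell reached the mAG+ median.

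Mki67, which coats mitotic chromosomes and is the usual marker of proliferation, stood at 669 CPM in mAG+ and 67.3 CPM in mKO2neg. It was counted in 44 of 48 mAG+ cells and 14 of 48 mKO2neg cells. Its log2 ratio was 3.31 (interval 3.03 to 3.61), 3.73 at 5000 counts a cell and 5.02 once the deepest cells were left out. Single mAG+ cells ran from 0 to 2051 CPM with a median of 490, and single mKO2neg cells from 0 to 770 CPM with a median of 0. Hmmr, a spindle protein that binds hyaluronan, had the largest ratio of the list: 768 counts in 43 mAG+ cells against 3 counts in 3 mKO2neg cells, a log2 ratio of 6.89 (interval 5.65 to 9.49). Arl6ip1, an endoplasmic reticulum protein, lay at the other end of the most counted genes, with 3093 and 558 counts and a log2 ratio of 1.67 (interval 1.54 to 1.81). It was counted in 39 of 48 mKO2neg cells.

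Cytokinesis and spindle genes followed Hmmr at the top of the list. Prc1, which bundles the microtubules of the spindle midzone, had 710 counts in mAG+ and 9 in mKO2neg (log2 ratio 5.40). Dlgap5, which stabilises spindle microtubules, had 333 and 4 counts (log2 ratio 5.35). The only member with a lower level in mAG+ was Pttg1, the securin that holds sister chromatids together until anaphase. It is named here because of its value. Pttg1 had 137 counts in 25 mAG+ cells and 198 counts in 23 mKO2neg cells, a log2 ratio of -1.32 (interval -1.65 to -1.01) and of -0.33 at 5000 counts a cell. Whether its row is among the few that the correction misreads was not tested.

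Cell by cell, the G2 and mitosis genes separated the gates almost fully. They took 0.776% to 4.78% of the counts of single mAG+ cells, with a median of 2.40%, over the 45 cells with at least 1000 counts. In the 43 mKO2neg cells of that depth the range was 0.0551% to 3.28% with a median of 0.162%. Of these 43 cells, 40 lay below every mAG+ cell and 3 lay within the mAG+ range. The deepest mKO2neg cell was among the 3, at 1.25%. At 5000 counts a cell, a median of 37 of the listed genes had a count in an mAG+ cell and 5 in an mKO2neg cell. The other two held 1.34% and 3.28% of their counts in these genes, with 0.647% and 0.0770% in S phase genes.

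**Figure D2:**
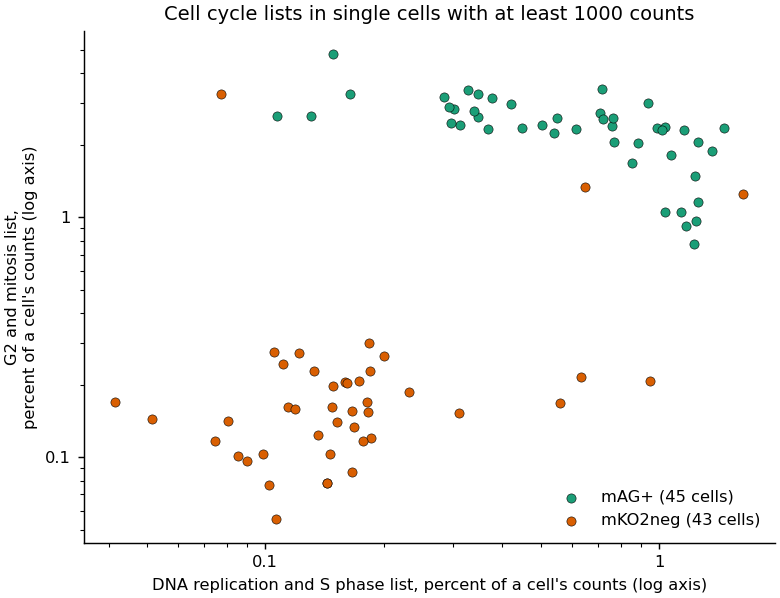
Share of a cell's counts in the G2 and mitosis list (y axis, percent, log scale) against its share in the DNA replication and S phase list (x axis, percent, log scale), for 45 mAG+ and 43 mKO2neg cells with at least 1000 counts; each point is a cell. The 45 mAG+ cells lie at 0.776% or more on the y axis, and 40 of the 43 mKO2neg cells lie below all of them.

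The promoters of these genes can be read beside their levels, since many G2 and mitosis genes are known to share a CHR element (the site of the DREAM and B-Myb complexes) and CCAAT boxes bound by NF-Y, while many S phase genes carry E2F sites. The sequences are RefSeq promoter windows of build GRCm38.p6, from 250 bases before to 50 after a gene's start. Motifs were searched as exact letters on both strands: TTTGAA or TTTAAA for CHR, CCAAT for the CCAAT box, and TTTCCCGC, TTTGGCGC, TTTGCCGC or TTTCGCGC for E2F. No motif here contains another, and matches of different motifs could overlap. The 4 most counted G2 and mitosis genes with a window close to the annotated start are shown, with the 2 most counted such S phase genes, so that the letters of genes from both lists can be compared. Each line gives the 250 bases before the start, 5′ to 3′ on the gene's strand, with every match in capitals, those on the other strand included. They lie at chr8:57511593-57511842 on the plus strand (Hmgb2), chr11:99024190-99024439 on the minus strand (Top2a), chr7:118129626-118129875 on the minus strand (Arl6ip1), chr5:30666636-30666885 on the plus strand (Cenpa), chr2:132253181-132253430 on the minus strand (Pcna) and chr7:13276925-13277174 on the plus strand (Lig1).
Hmgb2: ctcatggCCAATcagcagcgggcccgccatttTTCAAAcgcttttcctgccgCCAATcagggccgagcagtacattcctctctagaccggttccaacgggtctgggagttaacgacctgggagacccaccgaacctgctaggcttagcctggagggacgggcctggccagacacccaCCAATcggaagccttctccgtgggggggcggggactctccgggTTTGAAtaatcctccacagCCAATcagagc
Top2a: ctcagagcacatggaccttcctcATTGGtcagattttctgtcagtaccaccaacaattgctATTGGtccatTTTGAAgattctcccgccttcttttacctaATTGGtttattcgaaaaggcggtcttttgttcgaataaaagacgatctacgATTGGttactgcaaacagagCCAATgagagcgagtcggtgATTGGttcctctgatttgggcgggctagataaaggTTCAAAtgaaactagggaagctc
Arl6ip1: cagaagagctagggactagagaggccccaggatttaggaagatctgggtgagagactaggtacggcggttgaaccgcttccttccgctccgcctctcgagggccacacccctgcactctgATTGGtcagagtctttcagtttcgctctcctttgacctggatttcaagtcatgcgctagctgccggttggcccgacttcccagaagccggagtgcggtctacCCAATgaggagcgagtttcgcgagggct
Cenpa: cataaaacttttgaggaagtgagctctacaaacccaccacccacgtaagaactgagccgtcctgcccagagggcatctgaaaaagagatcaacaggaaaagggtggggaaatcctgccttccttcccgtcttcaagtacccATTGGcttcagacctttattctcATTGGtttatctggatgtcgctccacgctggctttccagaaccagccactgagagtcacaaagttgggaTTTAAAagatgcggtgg
Pcna: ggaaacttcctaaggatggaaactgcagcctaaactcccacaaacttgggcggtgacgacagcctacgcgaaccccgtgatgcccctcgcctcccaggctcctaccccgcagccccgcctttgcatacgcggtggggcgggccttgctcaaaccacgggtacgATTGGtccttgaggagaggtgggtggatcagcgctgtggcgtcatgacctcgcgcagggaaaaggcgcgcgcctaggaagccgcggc
Lig1: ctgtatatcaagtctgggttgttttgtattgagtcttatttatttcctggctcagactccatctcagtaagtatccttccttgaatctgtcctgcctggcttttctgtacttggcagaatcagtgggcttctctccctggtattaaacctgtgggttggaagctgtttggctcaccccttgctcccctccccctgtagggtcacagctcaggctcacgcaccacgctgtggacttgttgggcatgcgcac

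Hmgb2, Top2a and Cenpa, the centromeric histone, each had a CHR match and at least 2 CCAAT matches in these letters. Arl6ip1, whose log2 ratio was among the smallest of the list, had 2 CCAAT matches and no CHR match. Pcna had 1 CCAAT match, and neither Pcna nor Lig1 had an E2F match of these letters in this stretch. Over whole windows, 51 of the 59 G2 and mitosis genes matched the table, of which 37 (72.5%) had a CHR match and 32 (62.7%) both a CHR and a CCAAT match. Of 8843 windows of measured genes 19.2% had a CHR match and 7.85% both, and of all 32851 windows 27.6% and 10.7%. A CCAAT match was in 74.5% of the G2 and mitosis windows, 63.4% of the S phase windows and 38.9% of those of measured genes. Of 41 S phase windows, 8 (19.5%) had a CHR match and 15 (36.6%) an E2F match, and an E2F match was in 5.88% of the G2 and mitosis windows, 4.34% of those of measured genes and 2.26% of all windows. A match is a description of the letters and no evidence of binding, and these genes were listed for functions that the motifs are known from.

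The DNA replication and S phase genes were higher in mAG+ too, by a smaller margin that depended on the deepest cells. Of 54 measured genes, 48 were higher and 6 lower, 26 were at least 2-fold higher and 3 at least 2-fold lower, and the median log2 ratio was 0.93. Their summed level was 7143 CPM in mAG+ and 3908 CPM in mKO2neg. At 5000 counts a cell 43 of 43 genes were higher, with a median of 1.64. With the deepest cell of each gate left out, the median was 1.84, with 41 of 54 genes at least 2-fold higher and 2 at least 2-fold lower.

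The dependence on the deepest cells differed between genes. Mcm2 and Mcm5 are subunits of the helicase that unwinds DNA at origins. Mcm5 had 400 counts over 39 mAG+ cells and 201 over 17 mKO2neg cells, a log2 ratio of 0.20 (interval -0.05 to 0.45) that was 1.66 at 5000 counts a cell and 1.77 with the deepest cells left out. Mcm2 had 231 and 78 counts, a log2 ratio of 0.77 (interval 0.39 to 1.16) and of 0.79 without the deepest cells. Pcna, the sliding clamp of the DNA polymerases, stood at 382 CPM and 328 CPM, a log2 ratio of 0.22 (interval 0.07 to 0.37) that was 0.90 without the deepest cells. Its single-cell medians were 268 CPM in mAG+ and 124 CPM in mKO2neg, and 12 of 43 mKO2neg cells lay above the mAG+ median.

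Rrm2, the regulated subunit of the reductase that makes deoxynucleotides, had 568 counts in 30 mAG+ cells and 85 counts in 6 mKO2neg cells (log2 ratio 1.94, interval 1.61 to 2.29, and 3.57 with the deepest cells left out). Dut, which clears dUTP, was the most counted of the list with 1442 and 633 counts and a log2 ratio of 0.39 (interval 0.26 to 0.53), or 1.58 without the deepest cells. Lig1, the ligase that seals the fragments of the lagging strand, had 1018 and 271 counts (log2 ratio 1.11, interval 0.92 to 1.31, and 1.77 with the deepest cells left out). Clspn, which carries the checkpoint signal from stalled forks, had 382 and 19 counts (log2 ratio 3.48). Gins3, a part of the replicative helicase complex, had 94 and 3 counts (log2 ratio 3.88, interval 2.58 to 6.48). Ticrr, which helps load Cdc45 at origins, had 77 counts in 14 mAG+ cells and none in mKO2neg, which is at least 14.8-fold higher against a floor of 3 counts over the gate.

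Within the gates the S phase share was broad. It ran from 0.107% to 1.46% of counts in mAG+ cells, with a median of 0.714% and quartiles at 0.346% and 1.04%. In mKO2neg cells it ran from 0.0415% to 1.63%, with a median of 0.149% and an upper quartile at 0.183%. Of 45 mAG+ cells 41 lay above the mKO2neg upper quartile, and 5 of 43 mKO2neg cells lay above the mAG+ lower quartile. The mAG+ cell with the lowest G2 and mitosis share, 0.776%, had an S phase share of 1.23%, and the mAG+ cell with the highest S phase share, 1.46%, had a G2 and mitosis share of 2.36%.

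Cyclins of G1 and of later phases lay on opposite sides of the comparison. The list of cyclins, kinases and E2F factors had 18 of 25 measured genes higher and 7 lower, with a median of 0.91 and of 1.64 with both deepest cells left out. The 3 D-type cyclins, which start G1 progression, were all lower in mAG+. Ccnd2 stood at 308 CPM in mAG+ and 886 CPM in mKO2neg, a log2 ratio of -1.52 (interval -1.65 to -1.40). Single cells had Ccnd2 medians of 264 CPM and 618 CPM, and 4 of 45 mAG+ cells lay above the mKO2neg median. Ccnd3 had 147 and 202 counts (log2 ratio -1.25) and Ccnd1 11 and 37 counts (log2 ratio -2.42, interval -3.67 to -1.54). At 5000 counts a cell the log2 ratio was -1.29 for Ccnd2 and -1.48 for Ccnd3, while Ccnd1 had too few counts to pass the filter.

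Cyclins of later phases ran the other way. Ccne2, an E-type cyclin of the G1 to S step, had 71 counts in 11 mAG+ cells and 2 counts in 2 mKO2neg cells (log2 ratio 3.93, interval 2.45 to 7.43). Its relative Ccne1 had 39 and 25 counts, and an interval from -0.91 to 0.63 that includes equal levels, while without the deepest cell of each gate it had 39 and 2. Ccna2, the cyclin of S phase and G2, stood at 390 CPM and 52.3 CPM, with counts in 44 and 8 cells (log2 ratio 2.88, interval 2.57 to 3.23), and a log2 ratio of 4.49 with the deepest cells left out. Ccnb1, the cyclin of mitotic entry, stood at 238 CPM and 19.3 CPM (log2 ratio 3.59, interval 3.10 to 4.19) and its partner kinase Cdk1 at 658 CPM and 114 CPM (log2 ratio 2.52, interval 2.31 to 2.76, and 3.44 with the deepest cells left out). Ccnb1 was counted in 32 of 48 mAG+ cells, Cdk1 in 44.

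Of the G1 kinases Cdk4 and Cdk6, the first differed little and the second had no stable direction. Cdk4 stood at 402 CPM in mAG+ and 478 CPM in mKO2neg, a log2 ratio of -0.25 (interval -0.38 to -0.11), with single-cell medians of 368 CPM and 372 CPM. Cdk6 had 409 and 125 counts and a log2 ratio of 0.91, which turned to -0.20 at 5000 counts a cell, so its direction is not given. E2f7, a repressor of E2F targets made in S phase, had 160 and 4 counts (log2 ratio 4.30, interval 3.14 to 6.42). Mybl2, the B-Myb of the G2 wave, had 23 counts in 3 mAG+ cells and none in mKO2neg, at least 4.42-fold higher against the floor. Rb1, the retinoblastoma protein that holds E2F, had 39 counts in 5 mAG+ cells and none in mKO2neg, at least 7.49-fold higher against the same floor. Both genes rest on few cells, and the intervals of their log2 ratios start at 1.73 (Mybl2) and 2.54 (Rb1). At 5000 counts a cell Mybl2 had no count in either gate, and Rb1 had 1 count in mAG+ and none in mKO2neg.

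**Figure D3:**
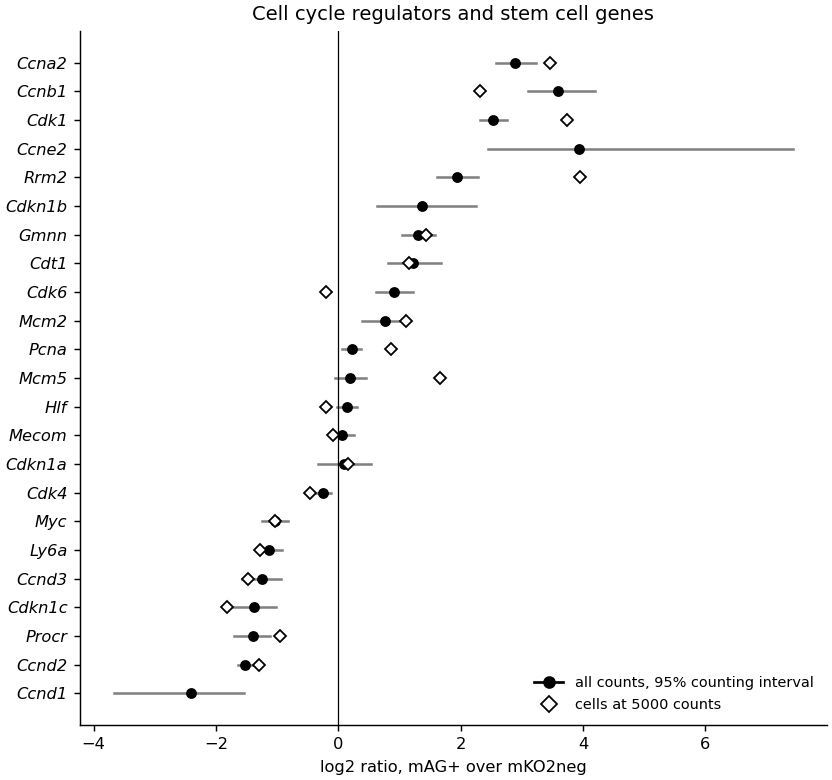
Log2 ratio of mAG+ over mKO2neg (x axis) for 23 cell cycle and stem cell genes (y axis); filled points use all counts with a 95% counting interval as a bar, and open diamonds use cells at 5000 counts, where a gene had at least 10 counts. Ccna2, Ccnb1 and Cdk1 lie above 2 in both settings, Ccnd2 and Ccnd3 lie below -1 in both, and Cdk6 changes sign between them.

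The CDK inhibitors did not move as 1 group. Cdkn1c (p57), an inhibitor needed for stem cell rest, had 102 counts in mAG+ and 154 in mKO2neg, a log2 ratio of -1.38 (interval -1.77 to -1.02) that was -0.45 without the deepest cell of each gate. Cdkn1b (p27) had 78 and 17 counts (log2 ratio 1.36, interval 0.63 to 2.25), and Cdkn1a (p21) had 130 and 70, with an interval from -0.33 to 0.54 that includes equal levels. Cdkn2d (p19) had 806 and 172 counts (log2 ratio 1.43). Cdkn3, a phosphatase that acts on cyclin-dependent kinases and is made in mitosis, had 753 and 30 (log2 ratio 3.82, interval 3.33 to 4.43).

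The mouse's own Gmnn and Cdt1 genes gave values in the same direction as each other. Gmnn, the geminin gene, had 587 counts in 39 mAG+ cells against 137 over 10 mKO2neg cells, a log2 ratio of 1.30 (interval 1.03 to 1.58) that was 2.44 with the deepest cells left out. Cdt1, the licensing factor that geminin inhibits, had 241 counts in 21 mAG+ cells against 59 over 7 mKO2neg cells, a log2 ratio of 1.22 (interval 0.82 to 1.67). No value here is for the transcripts of the reporters, and whether they add to these counts was not tested. Fucci reads protein stability, which transcript counts do not show.

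Histone and tubulin genes were mostly higher in mAG+, with single exceptions. Among histones and chromatin assembly factors 16 of 21 measured genes were higher and 5 lower, with a median of 1.05. H2afx, a histone variant that marks DNA breaks, had 2837 and 227 counts (log2 ratio 2.84, interval 2.65 to 3.05, and 3.62 with the deepest cells left out). H2afv had 3924 and 1010 (log2 ratio 1.16). The linker histone Hist1h1a had 113 and 6 (log2 ratio 3.29), with 44.6% of its summed per-cell CPM in mAG+ from 1 cell. Hist1h2bc ran the other way, with 95 counts in 18 mAG+ cells and 637 counts in 27 mKO2neg cells, a log2 ratio of -3.52 (interval -3.87 to -3.23) and of -4.70 at 5000 counts a cell. The replacement histone H3f3b, made outside S phase, had 10542 and 7013 counts and a log2 ratio of -0.21.

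The tubulin list had 10 of 11 genes higher, with a median of 1.52 and of 2.31 at 5000 counts a cell. Tubb5, Tuba1b and Stmn1, the last a protein that takes microtubules apart, had log2 ratios of 1.63, 1.76 and 1.52, or 2.56, 2.85 and 2.33 with the deepest cells left out. All 45 mAG+ cells lay above the mKO2neg median for each of these 3 genes, and 1 mKO2neg cell lay above the mAG+ median. The DNA methylation and Polycomb list had 15 of 18 genes higher with a median of 0.74. Its members included Dnmt1, which copies DNA methylation onto new strands (809 and 136 counts, log2 ratio 1.77, and 2.49 with the deepest cells left out), and Ezh2, the methyltransferase of Polycomb complex 2 (537 and 124 counts, log2 ratio 1.31), while Kdm6b, which removes the mark of Ezh2, had 31 and 79 counts (log2 ratio -2.10, and -2.95 with the deepest cells left out).

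**Figure D4:**
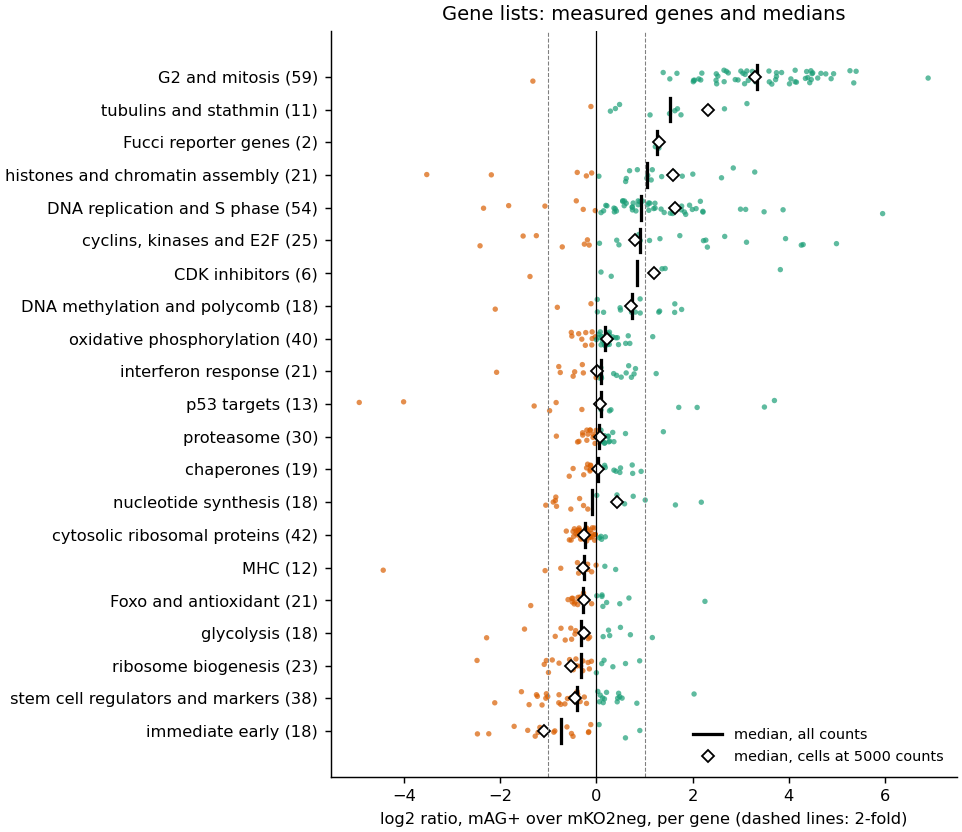
Log2 ratio of mAG+ over mKO2neg (x axis) of each measured gene in 21 gene lists (y axis, number measured in brackets); each point is a gene, bars are medians over all counts, open diamonds are medians at 5000 counts a cell, and dashed lines mark 2-fold. The G2 and mitosis list lies farthest to the right with a median of 3.34, and the immediate early list farthest to the left with -0.74.

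Stem cell genes were lower in mAG+ by a modest margin and unevenly. Of 38 measured genes, 14 were higher and 24 lower, 1 was at least 2-fold higher and 9 at least 2-fold lower, with a median log2 ratio of -0.40 beside 0.06 over all genes. At 5000 counts a cell 5 of 35 were higher and 30 lower, with a median of -0.45. The summed level was 8253 CPM in mAG+ and 11565 CPM in mKO2neg. Single mAG+ cells gave this list 0.551% to 1.21% of their counts (median 0.849%), and single mKO2neg cells 0.538% to 2.14% (median 1.21%).

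The 9 genes at least 2-fold lower included surface markers of stem and progenitor cells. Procr (EPCR) stood at 56.7 CPM in mAG+ and 150 CPM in mKO2neg, with counts in 26 and 25 cells (log2 ratio -1.40, interval -1.70 to -1.11). Ly6a (Sca-1) stood at 127 CPM and 279 CPM (log2 ratio -1.13, interval -1.34 to -0.93), and single cells overlapped, from 0 to 857 CPM in mAG+ and from 0 to 1400 CPM in mKO2neg. Ifitm1, an interferon-inducible membrane protein, had 2787 and 3804 counts (log2 ratio -1.24, interval -1.32 to -1.17), and 1 of 45 mAG+ cells lay above the mKO2neg median. Hoxb5, a transcription factor used to mark long-term stem cells, had 80 and 137 counts (log2 ratio -1.56), and the sulfotransferase gene Sult1a1 had 81 and 204 (log2 ratio -2.11).

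Mecom and Hlf, transcription factors that maintain stem cells, had intervals that include equal levels. Mecom stood at 246 CPM in mAG+ and 236 CPM in mKO2neg, in 42 and 39 cells (log2 ratio 0.06, interval -0.12 to 0.25). Hlf stood at 323 CPM and 292 CPM, in 42 and 41 cells (log2 ratio 0.14, interval -0.02 to 0.31), with single-cell medians of 326 CPM and 325 CPM. Slamf1 (CD150) had 84 and 43 counts, with an interval from -0.38 to 0.74. Kit, the receptor of stem cell factor, had 573 and 285 counts and a log2 ratio of 0.21 that was -0.45 at 5000 counts a cell and -0.01 without the deepest cells. Cd48, a marker of more committed progenitors, was the 1 gene of this list at least 2-fold higher. It had 11 counts in 4 mAG+ cells and 1 count in mKO2neg, and its interval from -0.12 to 8.09 includes equal levels.

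Immediate early genes had the lowest median of the 21 gene lists. These genes answer signals and cell handling within minutes. Of 18 measured in mAG+ against mKO2neg, 15 were lower and 3 higher; the median was -0.74, and -1.09 at 5000 counts a cell. Junb had 242 and 659 counts (log2 ratio -2.23), Egr1 167 and 316 (log2 ratio -1.71), Btg2 81 and 262 (log2 ratio -2.47) and Fos 2229 and 2336 (log2 ratio -0.86, interval -0.95 to -0.78). Single cells varied widely, from 0.0322% to 1.07% of counts in this list in mAG+ and from 0.0171% to 2.06% in mKO2neg.

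Growth and energy genes differed by less than 2-fold for most members. Of 42 cytosolic ribosomal protein genes measured, 38 were lower in mAG+ and none by 2-fold or more, with a median of -0.24 and summed levels of 110490 CPM and 131448 CPM. Rps27 had 9909 and 8802 counts (log2 ratio -0.62, interval -0.67 to -0.58), and 2 of 45 mAG+ cells lay above the mKO2neg median. The ribosome biogenesis list had 17 of 23 genes lower with a median of -0.33. Myc, the factor that drives growth genes, stood at 121 CPM and 250 CPM (log2 ratio -1.04, interval -1.26 to -0.83), and its relative Mycn had 140 and 453 counts (log2 ratio -2.48, interval -2.77 to -2.21).

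Glycolysis genes were lower for 12 of 18, with a median of -0.32. Aldoa, the aldolase, had the widest gap, with 341 and 957 counts (log2 ratio -2.28, interval -2.47 to -2.10), and its single-cell medians were 77.3 CPM and 627 CPM. None of the 45 mAG+ cells lay above the mKO2neg median for Aldoa, and 41 of the 43 mKO2neg cells lay above the mAG+ median. Oxidative phosphorylation genes were higher for 30 of 40, with a median of 0.17. Ndufs5, of complex I, had 197 and 50 counts (log2 ratio 1.17), and Uqcr10 and Uqcrq, of complex III, had log2 ratios of 0.70 and 0.66. Nucleotide synthesis genes divided evenly, 9 higher and 9 lower, with a median of -0.08 that was 0.43 at 5000 counts a cell and 0.30 without the deepest cells. Cad, which starts pyrimidine synthesis, had 91 and 11 counts (log2 ratio 2.18), and too few to pass the filter at 5000 counts a cell. Impdh2, which commits purines to GTP, had 1299 and 370 counts (log2 ratio 1.01). The folate enzyme Mthfd2 had 149 and 27 (log2 ratio 1.64, and 2.78 with the deepest cells left out). These were the 3 members at least 2-fold higher. Umps was the 1 member at least 2-fold lower (log2 ratio -1.05). With the deepest cells left out Umps had 120 and 119 counts and a log2 ratio of -0.88, which is under 2-fold.

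The genes with the largest ratios in each direction were taken by rule, 12 a side, from protein coding genes with a count in 12 or more cells of the gate where they were higher. All 12 on the mAG+ side, Hmmr and Ticrr of the lists above among them, had at most 3 counts in mKO2neg, so their ratios are limited by the depth of that gate. Brip1, a helicase that works with BRCA1, had 161 counts in 22 mAG+ cells (57.8 CPM) and none in mKO2neg, at least 30.9-fold higher against the floor of 3 counts over the gate, which is used for each gene without a count. Xrcc2, a gene of homologous recombination, had 76 counts and none, at least 14.6-fold higher, and Blm, the Bloom syndrome helicase, had 192 counts in 22 cells and 1 count (log2 ratio 6.01, interval 4.29 to 12.1). Sgo2a, which protects centromeric cohesion, had 92 counts and none, at least 17.7-fold higher, and Ska3, of the complex that couples kinetochores to microtubules, had 148 counts in 30 cells and 1 count (log2 ratio 5.63, interval 3.91 to 11.7). Phf19, a Polycomb partner, had 100 counts and none (at least 19.2-fold higher), and Fxr2, a relative of the fragile X protein, had 121 and none (at least 23.2-fold higher). Cep112, Prkar2a and Arhgap19 followed with 61 to 63 counts in mAG+ and none in mKO2neg.

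On the mKO2neg side, where Hist1h2bc was also among the 12, Tcp11l2 had 7 counts in 5 mAG+ cells and 124 counts in 21 mKO2neg cells (log2 ratio -4.71, interval -6.29 to -3.86). Phlda2, an imprinted growth restraint gene beside Cdkn1c, had 13 and 96 counts (log2 ratio -3.56, interval -4.64 to -2.84). Dusp2, a phosphatase of MAP kinases, had 121 and 475 counts (log2 ratio -2.76, interval -3.07 to -2.48), and its single-cell medians were 22.1 CPM and 178 CPM. Ctsl, the lysosomal protease cathepsin L, had 57 counts in 10 mAG+ cells and 232 counts in 25 mKO2neg cells (log2 ratio -2.79, interval -3.27 to -2.40). Pdk2, a kinase that shuts pyruvate dehydrogenase, had 11 and 50 counts (log2 ratio -2.84). Pecr, Dlgap4, Golga5, 2310057M21Rik and Mafg followed, with log2 ratios from -2.69 to -2.55.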

How the data were processed

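The deposited tables hold raw counts of whole reads for every gene row in every cell, left unnormalized by the authors. The submitters' processing notes name HISAT2, HTSeq 0.11.3, Seurat and build mm10, with no roles. Libraries were made by a modified Smart-seq2 protocol with enrichment of 3′ ends, per the labels' protocols. The sources used here give no annotation release, read filters, strand setting or use of molecular identifiers, so overlapping and antisense genes cannot be told apart. Gates were taken from the authors' deposited cell table.

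Gene symbols come from the deposited tables. Each gene was read from the row of the gene before it in GENCODE M21 (GRCm38, the assembly of mm10), and 53273 of 53378 rows matched by identifier. Rows outside the annotation held 0.222% of counts. Counts were summed per gate over 2785340 (mAG+) and 1604728 (mKO2neg) counts in corrected genes. Log2 ratios added a prior count of 1, in proportion to library totals, and genes needed at least 10 counts over both gates. Intervals are exact conditional binomial at 95% and treat counts as independent. They cover counting error only, and would be too narrow where reads are copies of the same molecule or cluster in a single cell. The floor for a gate without counts was 3 counts over the gate, 1.08 CPM in mAG+ and 1.87 CPM in mKO2neg. Thinning drew each cell to 5000 counts without replacement and left out 3 mAG+ and 5 mKO2neg cells. Single-cell values use cells with at least 1000 counts. List medians with genes at 0 in 1 gate set to the floor stayed at 3.34 for G2 and mitosis and 0.93 for S phase. No doublets were called.

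The named genes were the 12 highest and 12 lowest protein coding genes counted in 12 or more cells where they were higher, with no more than 25% of their summed per-cell CPM in 1 cell and 1 direction by summed counts, mean per-cell CPM and thinned cells, plus 29 chosen genes and the 3 most counted and 3 most different of each of 21 lists. Results of some of these genes are not reported here. The members and lists were chosen with earlier results of these data known. A promoter is the window nearest the gene's annotated start, and printed windows lie within 200 bases of it, a condition added after seeing the data. Alternatives were edgeR 4.0.16 TMM factors, DESeq2 1.42.0 size factors, other filters, prior counts and cell weights, leaving out cells, and the deposited labels. Scripts used Python 3.11.15 with numpy 2.4.6, scipy 1.17.1 and pandas 2.3.3 and were tested on simulated counts.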

Additional observations from a re-analysis of the deposited data

How the results depend on the processing

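With 1 sample a gate there is no replicate to leave out and no test. No paired analysis was possible because each gate is 1 sample and carries no replicate number shared with another. Counts of genes past 2-fold depended on depth and filter. The number of genes measured changed with them, from 12115 in the reported setting. At 5000 counts a cell 880 were higher and 751 lower of 6526 genes. With no filter 4009 were higher and 3068 lower of 16383, and with at least 50 counts 1304 and 864 of 8551. Leaving out each gene's largest cell in each gate gave 1030 lower of 10278 genes and moved the median of all genes from 0.06 to 0.25. It put 71.8% of the 2-fold genes on the mAG+ side against 59.1% in the reported setting. This setting kept the gate totals of all counts, without rescaling. Its ratios and list medians are therefore to be read beside its median of 0.25 over all genes. The G2 and mitosis median was 4.16 without the deepest cells and 4.45 without each gene's largest cell. The DNA replication and S phase median was 1.64 at 5000 counts, 1.84 with equal weight for each cell, 1.84 without the deepest cells and 2.10 without each gene's largest cell. Gene rows per mAG+ cell were 2129 at 5000 counts, where fewer counts are drawn. The stem cell median stayed between -0.51 and -0.39 under the 10 alternatives that keep the corrected labels. Scaling by TMM or DESeq2 shifted all genes alike, to a median of 0.066 or 0.054 against 0.063, and reversed nothing. So small a shift is a weak check of direction.

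With corrected labels, 11 values of named genes whose counting interval excludes equal levels turned sign, the cause not tested (genes whose interval includes equal levels are not counted): Cdk4 to 0.0275 and Cox4i1 to 0.0882 without each gene's largest cell, Cdk6 to -0.20, Ncl to -0.0291, Bst2 to -0.48 and Bax to 0.0750 at 5000 counts, Psma7 to 0.00466 and Ifit2 to -0.11 with equal weight for each cell, and Kit to -0.45 at 5000 counts, -0.25 with equal weight and -0.0140 without the deepest cells. Without each gene's largest cell the gate totals were not rescaled and the median of all genes was 0.25. The Cdk4 and Cox4i1 values of that setting lay below this median.

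With the labels as deposited, which read another row for each gene, the G2 and mitosis median was -0.0795, the DNA replication and S phase median -0.34, cyclins, kinases and E2F -0.0222, Fucci reporter genes -0.31, cytosolic ribosomal proteins 0.15, oxidative phosphorylation -0.12 and MHC 0.72. Single genes that turned sign were Hmmr -0.57, Ska3 -0.17, Arhgap19 -2.43, Phlda2 0.0140, Mafg 4.26, Cdt1 -0.97, Ccnd3 1.47, Mcm2 -0.36, Tubb6 -2.15, Ifitm3 1.44, Lmo2 1.03, Polr1c 0.30, Rplp1 3.0, Rps27 0.20, Ndufs5 -0.0461, Impdh2 -0.62, Paics -0.15, Nme1 -0.0793, Psmc3 -1.91, Hsp90aa1 -2.51, Ier2 1.32, Junb 1.21, Egr1 0.0784, Bst2 -0.87, Ciita 1.09, Hmox1 0.20 and Gtse1 -0.67.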

Other observations

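Housekeeping and stress lists lay near the median of all genes (0.06), of which 52.8% were higher in mAG+. Proteasome genes divided evenly, 15 on each side with a median of 0.04, and chaperones had 10 of 19 higher with a median of 0.04. Within the chaperones, the heat shock proteins Hsp90aa1 (4399 and 1512 counts, log2 ratio 0.74) and Hsp90b1 of the endoplasmic reticulum (1238 and 374, log2 ratio 0.93) were among the members with the widest gaps. Interferon response genes had 13 of 21 higher with a median of 0.10, or -0.06 without the deepest cell of each gate, among them the nuclear body protein Sp100 (281 and 68 counts, log2 ratio 1.24), while Ifit1 had 11 and 29 counts (log2 ratio -2.07). The p53 target list had 7 of 13 higher with a median of 0.10. Its member Gtse1, also a protein of G2 phase, had 173 and 7 counts (log2 ratio 3.70).

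Antigen presentation and oxidant defence lay slightly lower in mAG+. Of 12 MHC genes measured, 10 were lower with a median of -0.25. B2m, the light chain of class I molecules, had 19711 and 12875 counts (log2 ratio -0.18, interval -0.21 to -0.15), and the invariant chain Cd74 had 79 and 96 (log2 ratio -1.06). The Foxo and antioxidant list had 13 of 21 genes lower with a median of -0.27. Gpx1, a glutathione peroxidase, had 3249 and 2629 counts (log2 ratio -0.49), and Txn1, the cytosolic thioredoxin, had 2799 and 1151 (log2 ratio 0.49). Sesn3, a Foxo target, had 154 and 18 (log2 ratio 2.26). It was counted in 18 of 45 mAG+ cells, with a median of 0 and a highest value of 2392 CPM in a single cell.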
